A study of Saccharomyces cerevisiae with 7 samples.

Results

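The introns of 30 genes that encode proteins of the small (40S) ribosomal subunit of Saccharomyces cerevisiae were followed through lariat sequencing of 5 PRP8 strains. The members were the annotated introns whose locus ID belongs to a list of small subunit genes from RPS0 to RPS30 without RPS14, RPS21, RPS22, RPS24 and RPS26, which gave 30 of 280 annotated introns and 30 of 270 genes. The list did not hold the RPS25 and RPS29 genes with introns either. They form 14 pairs of A and B paralogues, plus RPS13, which has no paralogue, and RPS8A, whose paralogue RPS8B was outside the list. Each gene had 1 member intron. All symbols come from the reference annotation of build R64, and the label of the RPS8A intron places it in the 5' untranslated region.

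Every strain was mating type a with the chromosomal PRP8 replaced by LYS2 and carried PRP8 or a prp8 allele on plasmid pRS313. All strains, the PRP8-WT control included, also had the his3, leu2, ura3 and lys2 markers and a dbr1::Kan disruption, so no strain had the debranching enzyme. The mutant alleles were prp8-V1860N and prp8-V1860D, at the same residue, and prp8-N1869D and prp8-V1870N, at neighbouring ones. All alter the RNaseH domain of Prp8, and the study asked where splice sites were used in each strain. Cells were grown at 30 °C in rich medium, and 5 µg of total RNA went through removal of ribosomal RNA and digestion of linear molecules by RNase R. Each strain had 1 library, and prp8-N1869D had a further biological sample, read in 2 technical libraries whose counts were added up here as its second sample. No strain other than prp8-N1869D has a replicate, and its samples are the only measure of spread between samples.

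Splicing begins when an adenosine in the intron, the branch point, attacks the 5' splice site and closes the intron into a lariat. In wild-type yeast Dbr1 opens excised lariats, so its loss lets them persist and be counted at the junction between 5' splice site and branch point. Prp8 is the spliceosomal protein that cradles the catalytic RNA, and its RNaseH domain changes position between the steps of splicing. Introns are rare in yeast but common in ribosomal protein genes, many of which are kept as pairs left by an ancient genome duplication, with nearly the same protein and diverged introns.

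The libraries held between 652680 and 3517283 lariat reads, of which PRP8-WT had the most and technical library 2 the fewest. Annotated reads, those from the annotated 5' splice site to within 2 nt of the annotated branch point, numbered from 993122 in the first prp8-N1869D sample to 3042633 in PRP8-WT. Levels are given as reads per 100000 annotated reads of the same sample. Values for the 6 samples are printed in 1 fixed sample order: PRP8-WT, prp8-V1860N, prp8-V1860D, the first prp8-N1869D sample, the second one, and prp8-V1870N last. Because each level is a share, fewer lariats of a member and more lariats of other introns cannot be told apart. More transcription of the gene, more splicing and slower loss of the lariat cannot be told apart either.

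The member introns carried ordinary splice sites. The 5' hexamer GTATGT stood in 20 members and in 77.5% of all 280 introns, GTACGT in 7 members (among them RPS9A, RPS9B, RPS19A, RPS19B, RPS30A and RPS30B) and in 8.57% of introns, and GTATGA in 3 members (RPS6A among them) and in 2.86% of introns. The branch heptamer TACTAAC stood in 28 members and in 82.1% of introns. RPS9A had CACTAAC and RPS9B GACTAAC, which 2.86% and 4.64% of introns carried. All 30 members began with GT and had an A at the annotated branch point. The distance from 5' splice site to branch point ran from 173 nt in RPS4A to 516 nt in RPS19B, with a median of 363.5 nt, against 111.5 nt over all introns. The 5' splice sites of the 4 pairs whose A to B ratio had the widest range over the samples are shown first, with 5 exon bases and 15 intron bases read from build R64, with the intron hexamer in capitals.
RPS18A (chrIV:1359965-1359984, plus strand): ttacgGTATGTttattatta
RPS18B (chrXIII:223767-223786, minus strand): ttacgGTATGTtttacgagt
RPS9A (chrXVI:404952-404971, plus strand): gccaaGTACGTcgttaatct
RPS9B (chrII:604510-604529, plus strand): gccaaGTACGTattagacta
RPS23A (chrVII:727034-727053, plus strand): aacaaGTATGTtgactattt
RPS23B (chrXVI:795025-795044, plus strand): aacaaGTATGTacaattata
RPS19A (chrXV:92816-92835, minus strand): gttagGTACGTaaaaatgac
RPS19B (chrXIV:62909-62928, minus strand): gttagGTACGTataactttc
The exon bases and the hexamer were identical within each of these pairs. The branch points of RPS9, the pair with heptamers other than TACTAAC, are shown with the heptamer in capitals.
RPS9A (chrXVI:405417-405435, plus strand): gagcgctCACTAACaatgg
RPS9B (chrII:604884-604902, plus strand): aacttttGACTAACaagaa
Between 5' splice site and branch point the A and B introns of a pair were 46.7% (RPS27) to 53.9% (RPS10) identical in a global alignment. Their longest shared run was 8 to 10 nt in every pair but RPS9, where it was 26 nt.

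In PRP8-WT the member levels spanned 52.9-fold, from 75.6 reads per 100000 in RPS9A to 3999 in RPS30B, with a median of 494. The median over all introns was 116, and 27 of the 30 members lay above it. The 5 members with the most reads, RPS30B, RPS0B, RPS23A, RPS8A and RPS27A, held 49.9% of all member reads. RPS30B (YOR182C), whose protein has a mammalian counterpart made as a fusion with a ubiquitin-like protein, had 3999, 4036, 3659, 3411, 1594 and 3296 in sample order. The second prp8-N1869D sample stood apart, at less than the level of every other sample, and both of its technical libraries were low. RPS0B (YLR048W), a copy of the gene for a protein related to the mammalian laminin receptor, had levels of 2329, 2445, 1842, 2105, 1592 and 1873 in the same order. RPS23A (YGR118W), which encodes a protein of the decoding centre, had 1858, 1797, 2126, 1766, 2133 and 1890. The RPS23A levels thus stayed within a narrow band, with the second prp8-N1869D sample and prp8-V1860D at the top.

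RPS8A had levels of 1588, 1549, 1511, 1239, 1194 and 1413 in that order, and RPS27A, which encodes a zinc-binding protein, had 1453, 1527, 1426, 1099, 1191 and 1301. Both were lowest in the prp8-N1869D samples. RPS13 (YDR064W), a protein conserved from bacteria, had 108, 113, 112, 119, 81.2 and 119, and only the second prp8-N1869D sample lay apart. RPS30A had 112, 93.5, 106, 73.1, 65.9 and 90.3, and RPS9A had 75.6, 77.2, 63.9, 75.2, 58.1 and 74.0. These 3 introns had the fewest reads of all members.

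**Figure D1:**
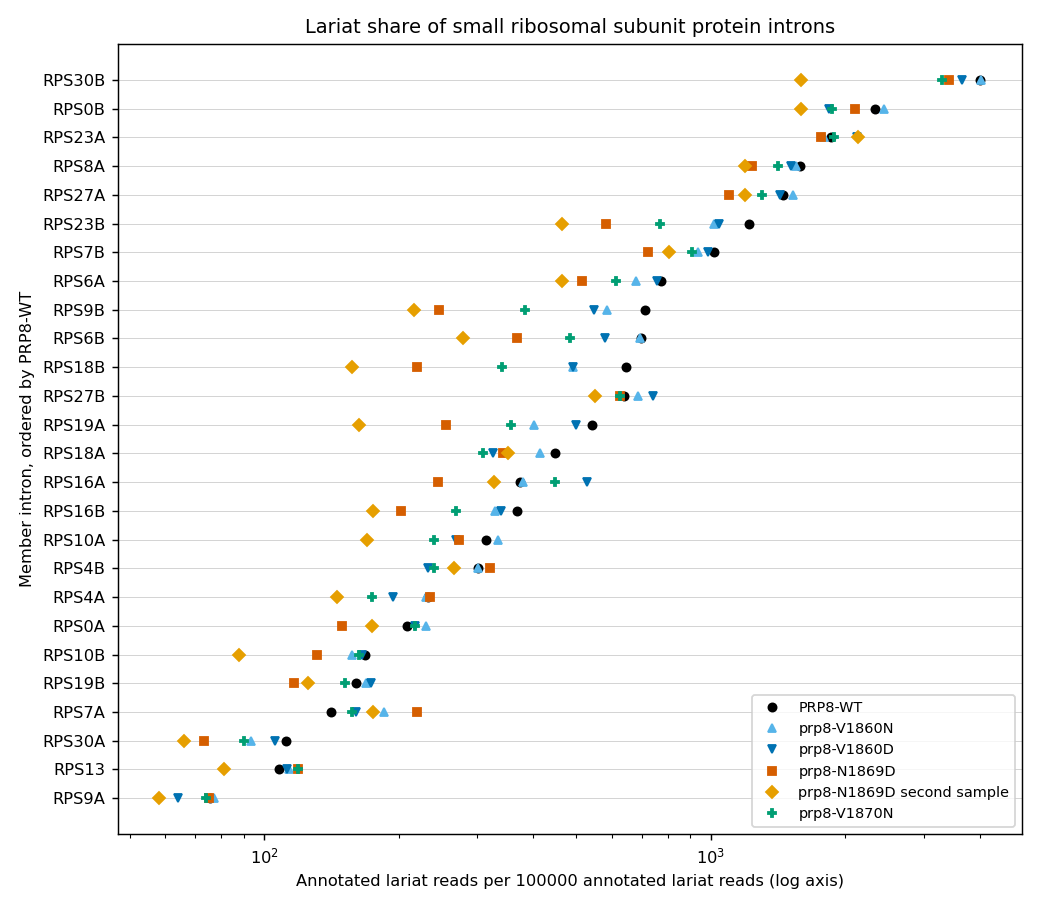
Annotated lariat reads per 100000 annotated lariat reads (log axis) for 26 of the 30 member introns, ordered by PRP8-WT, with 1 point per sample. PRP8-WT runs from 75.6 in RPS9A to 3999 in RPS30B, and the prp8-N1869D samples are far to the left in RPS18B, RPS9B, RPS19A and RPS23B.

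As a group, the member introns held 23.1% of annotated reads in PRP8-WT, and then 22.6%, 21.8%, 17.7%, 14.8% and 19.4% in sample order. Their share was lowest in the prp8-N1869D samples. The technical libraries gave 15.3% and 14.3%. The large subunit introns had a lower share in the same samples, with 34.5% in PRP8-WT against 30.1% and 27.7% in prp8-N1869D, while the 177 introns of other genes went from 33.2% to 41.4% and 45.4%. The summed share of the 15 small subunit introns outside the list went up as well, from 9.19% in PRP8-WT to 10.8% and 12.1%. Most of these 15 were nevertheless lower, with 11 and 13 below PRP8-WT in the prp8-N1869D samples and medians of log2 -0.34 and -0.20. The median member changed by log2 -0.00, -0.08, -0.38, -0.41 and -0.22 in the mutants, in sample order. The medians of the 58 large subunit introns were close to these, at -0.34 and -0.33 in prp8-N1869D and -0.17 in prp8-V1870N. RPS30B alone held 16.9% of member reads, and without it the log2 change of the summed share was -0.42 and -0.53 in prp8-N1869D, and prp8-V1870N had -0.25.

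Counted past 1.5-fold, 0 members were lower in prp8-V1860N, where 1.43% of all introns were, and 0 in prp8-V1860D, where 3.21% were. In prp8-N1869D 10 members were lower in the first sample against a background of 14.3%, and 13 in the second against 18.2%. In prp8-V1870N 4 members were lower, against 8.93% of all introns. RPS7A was higher past 1.5-fold in the first prp8-N1869D sample, where 43.6% of all introns were, and no member was in the second, where 44.3% were, or in prp8-V1870N, where 30% were. No member was higher in prp8-V1860N or prp8-V1860D either, against backgrounds of 10% and 10.4%. Scaled to introns outside ribosomal protein genes, 18 and 28 members were lower in prp8-N1869D, beside 27.9% and 39.6% of all introns under that scaling, and 10 in prp8-V1870N, beside 17.1%. Under it RPS7A was at log2 0.31 in the first prp8-N1869D sample, no longer past 1.5-fold. These counts involve no test, since a strain other than prp8-N1869D has no spread of its own.

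In both prp8-N1869D samples 9 members were lower past 1.5-fold, among them RPS6A, RPS6B, RPS9B, RPS16B, RPS18B, RPS19A, RPS23B and RPS30A, against 35 of all 280 introns or 12.5%. Of these 9, 4 were also lower in prp8-V1870N, where 8.93% of all introns were. The same overlap was not counted for the 35 introns, and the comparisons share the PRP8-WT library. The edgeR quasi-likelihood test of the 2 prp8-N1869D samples against the PRP8-WT sample has 1 residual degree of freedom, and the lone PRP8-WT sample is assumed to vary like prp8-N1869D. It called the same 9 members lower and 0 members higher at an adjusted p under 0.05, over 264 introns of which 13.3% were lower and 25.4% higher. On the scale of this test the median member was at log2 -0.60 and the median intron at 0.09. Leaving out technical library 1 ended the calls of RPS30A and RPS6A, and 7 members remained.

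RPS18B (YML026C), whose protein sits in the head of the subunit near the tRNA sites, showed the largest fall. Its levels were 647, 491, 490.0, 219.9, 157 and 340.4 reads per 100000 in sample order. Both prp8-N1869D samples lay below every other sample, and the edgeR log2 fold change was -1.99 (adjusted p = 0.0023, lower in 2 of 2 samples). RPS9B (YBR189W), whose protein is an early binder of the subunit body, had 712, 587, 547, 246 and 216 and, in prp8-V1870N, 384. Its order of samples was the same, with an edgeR log2 fold change of -1.84 (adjusted p = 0.0023).

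RPS19A (YOL121C), a protein whose human counterpart is altered in Diamond-Blackfan anaemia, had levels of 541, 401, 499.7, 255 and 163 and, in prp8-V1870N, 356. Its edgeR log2 fold change was -1.59 (adjusted p = 0.0049). RPS23B (YPR132W), which encodes the same decoding-centre protein as RPS23A, had 1218, 1017, 1043, 582, 465 and 771, and its edgeR log2 fold change was -1.44 (adjusted p = 0.0054). In both genes the prp8-N1869D samples were the lowest and prp8-V1870N the next. Among the other called members the edgeR log2 fold change was -1.33 in RPS6B, a protein phosphorylated downstream of the TOR pathway, -1.18 in RPS16B, -0.90 in RPS30A and -0.88 in RPS6A, with adjusted p of 0.0070, 0.0108, 0.0294 and 0.0411. RPS30B did not pass (edgeR log2 fold change -0.89, adjusted p = 0.172). Its log2 changes of share were -0.23 and -1.33 in the first and second prp8-N1869D samples.

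**Figure D2:**
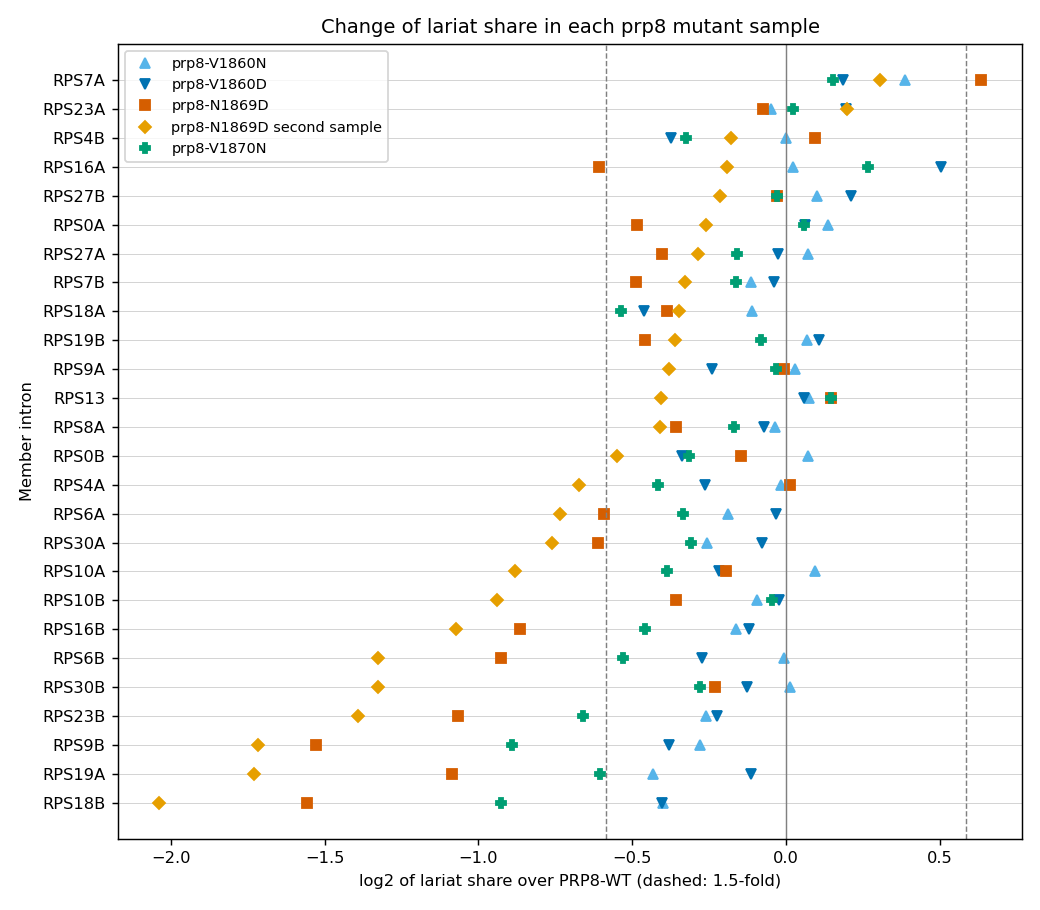
log2 of the lariat share over PRP8-WT for 26 members in the 5 mutant samples, ordered by the second prp8-N1869D sample, with dashed lines at 1.5-fold. RPS18B, RPS19A and RPS9B reach -2.04, -1.73 and -1.72 in that sample, while RPS7A is the only one of them beyond the right line, at 0.64 in the first prp8-N1869D sample.

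The extremes in prp8-V1860N and prp8-V1860D were smaller. In prp8-V1860N the lowest members were RPS19A at log2 -0.43, RPS18B at -0.40 and RPS9B at -0.28, and the highest included RPS7A at 0.39 and RPS0A at 0.14. In prp8-V1860D the lowest were RPS18A at -0.46, RPS18B at -0.40 and RPS9B at -0.38, and the highest included RPS16A at 0.51 and RPS27B at 0.21. RPS18B and RPS9B were thus among the 3 lowest members of every mutant sample, and all 5 samples share the PRP8-WT library. In prp8-V1870N the lowest were RPS18B at -0.93, RPS9B at -0.89 and RPS23B at -0.66, and the highest included RPS16A at 0.27 and RPS7A at 0.15. RPS7A, whose human counterpart is also altered in Diamond-Blackfan anaemia, had 141, 185, 161, 219.6, 175 and 157 reads per 100000 in sample order. As shares of all annotated reads, every mutant sample thus lay above PRP8-WT. Scaled to introns outside ribosomal protein genes, all 30 members, RPS7A included, were below PRP8-WT for the second prp8-N1869D sample. Under that scaling RPS7A was also below PRP8-WT for prp8-V1870N. In prp8-N1869D the highest after RPS7A were RPS13 at 0.15 and RPS4B at 0.09 in the first sample. In the second sample they were RPS7A at 0.31, RPS23A at 0.20 and RPS4B at -0.18.

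Between the prp8-N1869D samples the median absolute log2 difference over members was 0.27, with 4 of 30 past 1.5-fold, and between the technical libraries 0.18, with 0 past it. The largest difference between the samples was that of RPS30B, at log2 -1.10. The members with GTACGT had a median log2 change of -0.61 and -1.33 in the first and second prp8-N1869D samples, against -0.36 and -0.38 for those with GTATGT. The median of -1.33 is the value of RPS30B itself, which was at -0.23 in the first sample. Over all 24 introns with GTACGT the medians were 0.05 and -0.30. The distance from 5' splice site to branch point and the change among members had a Spearman rho of 0.25, 0.37, -0.06, 0.07 and 0.37 in the mutants, in sample order (n = 30 introns of the same libraries). Pearson's r was 0.18, 0.50, -0.00, 0.14 and 0.41. Over all 280 introns rho was -0.50, -0.40, -0.74, -0.72 and -0.66, all negative, while over members it was near 0 in prp8-N1869D and above 0 in the other strains. The 58 large subunit introns resembled the members, with rho of 0.02, 0.30, 0.04, 0.08 and 0.24. The 177 introns of other genes had -0.47, -0.55, -0.68, -0.68 and -0.68.

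Paralogues were compared within each sample, where depth and scaling cancel but a loss of reads that differs by strand does not. In 11 of 14 pairs the same copy had more reads in all 6 samples, the A copy in 6 pairs and the B copy in 5, and each passed a two-sided exact sign-flip permutation test (p = 0.03125, the smallest that 6 samples allow, and 0.0380 after Benjamini-Hochberg adjustment over 45 ribosomal pairs). That p follows whenever all 6 values have 1 sign, so it restates the count, and the 6 samples are 5 strains rather than replicates of 1 condition. Of those 45 pairs 82.2% passed, so the member count lies near the background. The calls of RPS16 and RPS4 were lost when only reads at the exact annotated branch point were counted. RPS16 also lost its call when reads 1 to 5 nt from the annotated 5' splice site, described at the end, were added, since PRP8-WT then had 11345 reads of RPS16A and 11371 of RPS16B. The same copy then led in 10 of 14 pairs, and in 36 of all 45. RPS6 and RPS18 were among the 3 pairs that did not pass.

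The most lopsided pair was RPS30, where the B intron had 35.8 times the reads of the A intron in PRP8-WT, 43.2 times in prp8-V1860N, 34.6 times in prp8-V1860D, 46.7 and 24.2 times in the prp8-N1869D samples and 36.5 times in prp8-V1870N. In RPS0 the B intron had 11.2, 10.6, 8.46, 14.1, 9.14 and 8.61 times the A reads in that order. In RPS9 the B intron had 9.41, 7.60, 8.56, 3.28, 3.73 and 5.19 times the A reads. RPS9 is a pair whose copies are known in yeast to influence each other's expression through their introns. Its ratio was lowest in the prp8-N1869D samples, next in prp8-V1870N, and these 3 did not overlap the other 3. In RPS7 the B intron had 7.18, 5.07, 6.14, 3.30, 4.62 and 5.78 times the A reads, and PRP8-WT was the most lopsided.

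Against PRP8-WT the ratio of A to B moved past 1.5-fold in 0 of 14 pairs in prp8-V1860N (background 4.44% of 45 pairs) and in 1 in prp8-V1860D, RPS16 (background 11.1%). It moved in 6 and 8 pairs in the first and second prp8-N1869D samples (background 46.7% in each) and in 3 pairs in prp8-V1870N, RPS9, RPS16 and RPS23 (background 22.2%). RPS7, RPS9, RPS18, RPS19 and RPS23 moved in both prp8-N1869D samples, and RPS6 and RPS16 moved in the second sample. The ratio moved toward the A copy in all of these but RPS19. The shares of RPS6A, RPS9A, RPS16A and RPS18A were themselves below PRP8-WT in both prp8-N1869D samples. That of RPS7A was above it in both, and that of RPS23A only in the second. Between the prp8-N1869D samples themselves 5 of 14 pairs differed past 1.5-fold, namely RPS0, RPS16, RPS19, RPS23 and RPS30, and between the technical libraries 0 did. RPS16, RPS19 and RPS23 are among both, so for them the spread between samples was itself past 1.5-fold.

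RPS18 had the widest range. In PRP8-WT the A intron had 13595 reads and the B intron 19697, a log2 ratio of A to B of -0.53. The mutants followed with -0.25, -0.59, 0.64, 1.16 and -0.14 in sample order, and the technical libraries gave 0.99 and 1.30. The A intron thus had more reads only in the prp8-N1869D samples, in all 3 libraries.

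RPS23 stayed on the A side and moved further, with log2 ratios of 0.61, 0.82, 1.03, 1.60, 2.20 and 1.29 in sample order. PRP8-WT had the lowest value of all 6 samples. RPS19 went the other way, with 1.75, 1.25, 1.53, 1.13, 0.38 and 1.23. The highest value was that of PRP8-WT. The log2 ratios of RPS9 were -3.23, -2.93, -3.10, -1.71, -1.90 and -2.37, so its B copy led by least in prp8-N1869D. In RPS9, RPS16, RPS18 and RPS23 the B intron was called lower by edgeR in prp8-N1869D and the A intron was not, and in RPS19 it was the reverse. In RPS30 only the A intron was called, but the edgeR log2 fold changes were alike, at -0.90 in RPS30A and -0.89 in RPS30B. The difference of these changes between the copies was not tested.

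Other pairs varied less than RPS9, RPS18, RPS19 and RPS23. The log2 ratio over the 6 samples ran from 0.56 to 1.09 in RPS10, from 0.02 to 0.90 in RPS16, from 0.81 to 1.18 in RPS27, from -0.87 to -0.26 in RPS4 and from -0.03 to 0.74 in RPS6. RPS8A, compared with the RPS8B intron outside the list, had a log2 ratio of 1.41, 1.29, 1.49, 1.15, 1.20 and 1.26 in sample order.

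**Figure D3:**
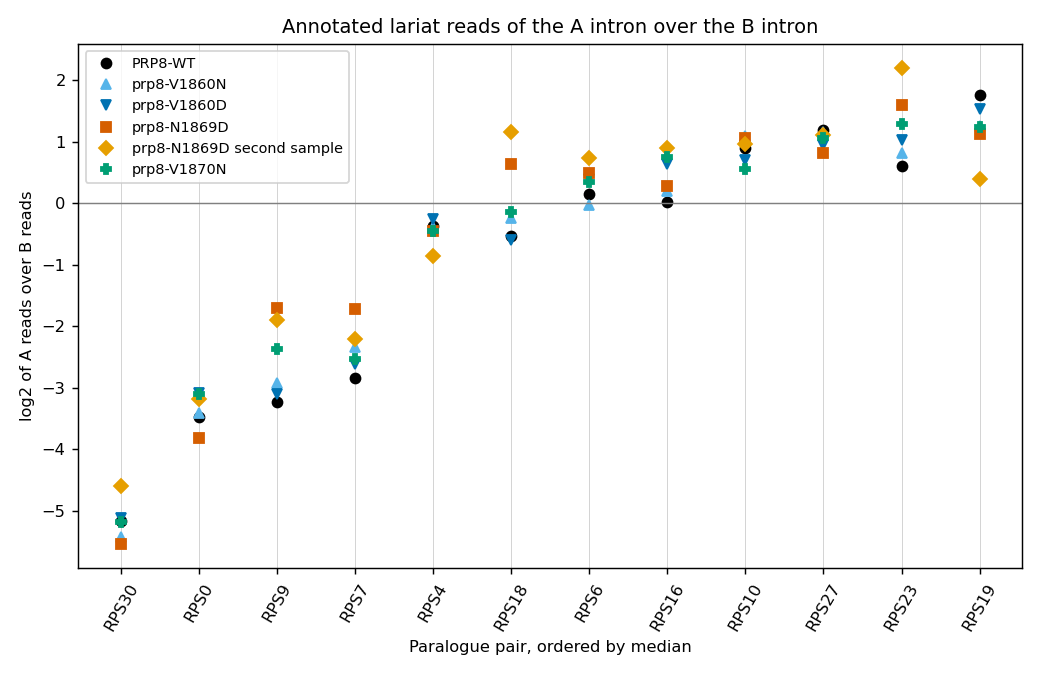
log2 of annotated reads of the A intron over those of the B intron in each sample, for 12 of the 14 pairs ordered by their median. RPS30 lies lowest, between -5.54 and -4.60, and RPS18 crosses 0, from -0.53 in PRP8-WT to 1.16 in the second prp8-N1869D sample.

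Reads that joined the annotated branch point to an aberrant 5' splice site, which lay over 5 but under 1000 nt away from the annotated site, were rare in the members. They made up 0.0991% (exact binomial 95% interval 0.0919 to 0.107), 0.0841%, 0.0538% (0.0468 to 0.0614), 0.0998%, 0.105% and 0.0985% of these and annotated reads in sample order. Such intervals cover counting error only, since reads without molecular identifiers are not independent molecules. The large subunit introns had 0.633% in PRP8-WT and 0.375% in prp8-V1860D, and the introns of other genes 0.341% and 0.297%. The small subunit introns outside the list went the other way, from 0.699% (0.669 to 0.731) to 0.874% (0.833 to 0.917). In the members the lowest value was that of prp8-V1860D, whose interval did not overlap that of PRP8-WT. Aberrant reads were seen in 29 of 30 members, 94.0% of them began with GT and 79.1% lay downstream of the annotated site. RPS19A had 0 in 43347 annotated reads, which allows up to 0.00692%.

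Leading aberrant sites follow, since single sites hold most of these reads in the members named, with 5 bases before the site and the first 6 after it in capitals. The signed number is the distance from the annotated site in nt, positive downstream.
RPS23B 105 (chrXVI:795130-795149, plus strand, in the intron): aaaaaGTAAGGgagaataat
RPS10A 248 (chrXV:867393-867412, plus strand, in the intron): gagacGTATGAaatatggta
RPS10A -72 (chrXV:867073-867092, plus strand, outside annotated genes): gaacaGTACGAactaagtag
RPS13 -14 (chrIV:579460-579479, plus strand, in the first coding exon): gggtcGTATGCacagtgccg
RPS16A 111 (chrXIII:552058-552077, plus strand, in the intron): aatgaGTACGCatagtgtat
RPS23B had the most aberrant reads, 395 in the 6 samples, of which 358 were at the site 105 nt downstream. Its aberrant share was 0.473%, 0.307%, 0.197%, 0.465%, 0.638% and 0.499% in sample order. Only prp8-V1860N and prp8-V1860D lay below the PRP8-WT interval of 0.405 to 0.548%. RPS10A, with 336 aberrant reads, had shares of 1.55%, 0.762%, 0.582%, 1.60%, 1.16% and 1.09% in that order. Again prp8-V1860N and prp8-V1860D had the lowest shares.

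RPS13 moved the other way. In sample order 0.817% (0.539 to 1.19), 1.91% (1.38 to 2.56), 1.29%, 0.505%, 0.664% and 1.02% of its reads were aberrant, with prp8-V1860N the highest. The site 14 nt upstream, in the coding exon, held 114 of its 128 aberrant reads. RPS27B had shares of 0.190%, 0.120%, 0.0659%, 0.128%, 0.245% and 0.164%, and RPS16A had 0.255%, 0.256%, 0.113%, 0.287%, 0.249% and 0.272%. In RPS27B and RPS16A prp8-V1860D was the lowest sample. Intervals lay below that of PRP8-WT in 4 members in prp8-V1860D (RPS10A, RPS23B and RPS27B among them; background 7.14% of introns) and in 2 in prp8-V1860N (RPS10A and RPS23B; background 3.93%). In the first and second prp8-N1869D samples and prp8-V1870N 0 members lay below it (backgrounds 1.43%, 3.57% and 1.79%). None lay above it in prp8-V1860D (background 2.14%). They lay above it in RPS13 in prp8-V1860N (background 2.86%), in RPS9B in the first prp8-N1869D sample (4.64%), in RPS18B in the second (6.79%) and in 1 member in prp8-V1870N (5%), and neither prp8-N1869D call was shared by the other sample.

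Reads that joined the annotated 5' splice site to a branch point over 2 but under 1000 nt away from the annotated point, called distant branch points here, were more frequent. In sample order they were 0.559% (0.542 to 0.577), 0.574%, 0.548%, 0.754% (0.714 to 0.795), 0.762% (0.720 to 0.805) and 0.693% (0.664 to 0.723) of these and annotated reads. The intervals of the last 3 lay above that of PRP8-WT. The share was above that of PRP8-WT in 28 and 20 of 30 members in the prp8-N1869D samples and in 25 in prp8-V1870N, against 16 in prp8-V1860N and 12 in prp8-V1860D. Of all introns with reads in both libraries, 55.6% and 53.5% lay above PRP8-WT in the prp8-N1869D samples, 56.2% in prp8-V1870N, 46.7% in prp8-V1860N and 40.1% in prp8-V1860D. With members weighted as in PRP8-WT the value was 0.556% for PRP8-WT itself, 0.748% and 0.720% for the prp8-N1869D samples, and prp8-V1870N had 0.682%. For the same 4 samples, unweighted, the large subunit introns gave 0.502%, 0.521%, 0.495% and 0.543%, and the small subunit introns outside the list gave 0.722%, 0.635%, 0.536% and 0.575%. The introns of other genes gave 3.25%, 3.64%, 4.36% and 3.71%, so a higher share in these 3 mutant samples was also seen outside ribosomal protein genes. Of the members' distant branch reads 84.4% lay upstream of the annotated point and 29.5% at 3 or 4 nt upstream, inside the branch motif. With a distance of more than 10 nt these samples had member shares of 0.240%, 0.408%, 0.423% and 0.350%.

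Each leading distant branch point shown next joins at an A, but over all members the leading distant branch base was A in only 13 of 30. The distant branch points that lead in the members named next are shown with the joined base in capitals and the distance from the annotated branch point.
RPS6B -278 (chrII:592711-592729, minus strand, in the intron): cagcacgcgctaAccggct
RPS4A -15 (chrX:702890-702908, minus strand, in the intron): aaatattttacgAgtaatg
RPS6A -9 (chrXVI:378036-378054, minus strand, in the intron): taattttgcaatAgtatac
RPS23A 738 (chrVII:728061-728079, plus strand, antisense to NUP57): atatttttttacAattgca
RPS0B -4 (chrXII:242635-242653, plus strand, in the intron): atgaacgctcttActaaca
RPS6B had distant branch shares of 0.710% (0.602 to 0.831), 0.812%, 0.699%, 2.72% (2.22 to 3.29), 3.45% (2.84 to 4.14) and 1.46% (1.20 to 1.75) in sample order. The prp8-N1869D samples and prp8-V1870N lay apart from the others, and the technical libraries gave 3.63% and 3.27%. The site 278 nt upstream held 249 of 661 reads and the next base upstream 135, which leave lariats of only 51 and 50 nt from the 5' splice site. The share of that leading site was 0.277% in PRP8-WT and 1.03% and 1.22% in the prp8-N1869D samples. The reads at it numbered 59, 46, 29, 38, 38 and 39 in sample order, not scaled to depth. PRP8-WT had 3042633 annotated reads and the prp8-N1869D samples 993122 and 1105661.

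RPS16B, with 204 distant branch reads, had shares of 0.479%, 0.233%, 0.621%, 1.47%, 1.43% and, in prp8-V1870N, 0.906%. RPS23A had 0.995%, 1.05%, 1.14%, 1.28%, 1.24% and 1.53%. In these 2 members and RPS6B the intervals lay above that of PRP8-WT in both prp8-N1869D samples and prp8-V1870N. They did so in 4, 6 and 5 members in the first and second prp8-N1869D samples and prp8-V1870N, against backgrounds of 5.71%, 7.86% and 6.43% of introns. The calls made in 1 or 2 of these samples included RPS27A, RPS4A, RPS7B and RPS23B. No member was called above PRP8-WT in prp8-V1860N (background 0.714%) or prp8-V1860D (1.79%). In prp8-V1860D 1 member was called below it (background 4.64%), and 0 members were in prp8-V1860N (1.43%), either prp8-N1869D sample (1.79% and 3.93%) or prp8-V1870N (2.14%).

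RPS4A, whose leading site 15 nt upstream held 575 of its 686 reads, had shares of 2.44%, 2.77%, 2.67%, 3.35%, 4.95% and 4.19%. The second prp8-N1869D sample was highest and PRP8-WT lowest. RPS6A had nearly all of its 1944 distant branch reads at the site 9 nt upstream, 1864, and its shares of 2.74%, 2.67%, 2.65%, 2.76%, 2.26% and 2.77% all had intervals that overlapped that of PRP8-WT. RPS0B likewise stayed at 0.781%, 0.890%, 0.749%, 0.816%, 0.767% and 0.817%. The site of RPS23A 738 nt downstream lay beyond its gene, on the strand opposite NUP57, and held 832 of 2367 reads.

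**Figure D4:**
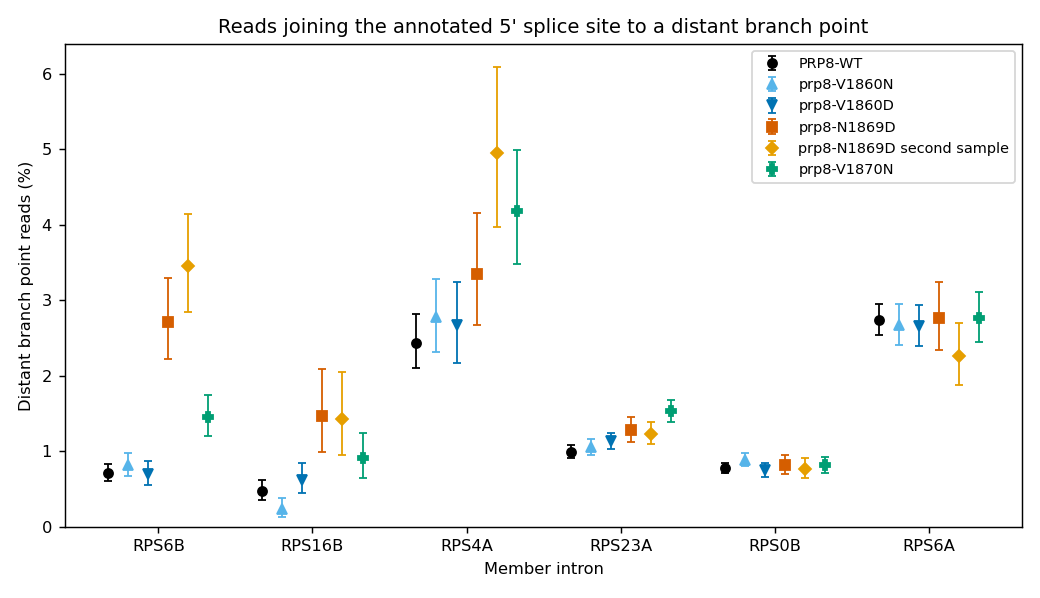
Distant branch point reads as a percentage of these and annotated reads, in 6 member introns and 6 samples, with exact binomial 95% intervals. RPS6B, RPS16B and RPS23A lie above their PRP8-WT interval in both prp8-N1869D samples and prp8-V1870N, while RPS0B and RPS6A overlap theirs in every sample.

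Annotated counts pool branch positions within 2 nt, and most member reads did not end on the annotated base itself. In PRP8-WT 53.0% of member reads ended 1 nt upstream, 36.5% on it and 9.45% 2 nt upstream. The share 1 nt upstream ran from 51.0% in prp8-V1860D to 54.2% in the first prp8-N1869D sample. It was the largest class in 24 of 30 members and the annotated base in the other 6. RPS4A stood apart with 69.5% on the annotated base. RPS30A had 26.2% at 2 nt upstream and RPS23A 5.70% at 1 nt downstream, the highest values of those classes.

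Reads whose 5' end lay 1 to 5 nt from the annotated 5' splice site fell in neither the annotated nor the aberrant class. Their share differed by strand. The 14 members on the minus strand had 0.540 to 8.48% (median 2.60%), all above 0.5%, and the 16 on the plus strand had 0.0125 to 0.143% (median 0.0432%). Among all annotated introns with at least 100 annotated reads the medians were 1.89% on the minus and 0.0407% on the plus strand, with 113 of 121 minus-strand introns and 7 of 138 plus-strand introns above 0.5%. How strand and 5' ends were assigned is not given in the sources used here, and whether these reads mark 5' splice sites or arise in alignment or filtering was not tested. RPS30B held 63.9% of all such member reads, so pooled minus-strand values rest largely on it. In every sample the pooled minus-strand share lay between 3.88 and 5.57% and the plus-strand share between 0.0374 and 0.0578%. The annotated counts of minus-strand members therefore leave out more reads than those of plus-strand members. With these reads added, 9, 13 and 3 members were lower past 1.5-fold in the first and second prp8-N1869D samples and prp8-V1870N, against 10, 13 and 4 without them. Of all introns counted in that way 13.9%, 17.9% and 8.21% were lower.

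RPS19A, on the minus strand, had 8.48% of such reads over the 6 samples pooled and RPS30B 8.24%, and RPS30B had the higher share in PRP8-WT, prp8-V1860N and the first prp8-N1869D sample. In PRP8-WT 675 of its reads were shifted, in prp8-V1860N 657, in prp8-V1860D 1221, in the prp8-N1869D samples 255 and 344 and in prp8-V1870N 864, beside 16464, 7825, 9205, 2531, 1805 and 5517 annotated reads. The shifted share was 3.94% (3.65 to 4.24), 7.75%, 11.7%, 9.15% (8.11 to 10.3), 16.0% (14.5 to 17.6) and 13.5% in sample order. Every mutant sample lay above the PRP8-WT interval, and so did both technical libraries, at 18.3% and 13.1%. Reads exactly 3 nt upstream made up 2598 of the 4016 shifted reads and reads exactly 3 nt downstream 885. The share 3 nt upstream was 2.28%, 5.15%, 7.77%, 6.07%, 10.005% and 9.03% in sample order.

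Of the RPS19A reads 3 nt upstream 98.9% ended on the annotated branch base, against 21.5% of its annotated reads. RPS19B, which has the same 5 exon bases and the same hexamer, had shifted shares of 2.22%, 2.95%, 3.01%, 2.68%, 3.02% and 2.81%, whose intervals overlapped. With the shifted reads added, the log2 change of RPS19A went from -1.09 to -1.01 and from -1.73 to -1.53 in the prp8-N1869D samples and from -0.60 to -0.45 in prp8-V1870N. RPS6A also had intervals above PRP8-WT in every mutant sample, from 2.10% in PRP8-WT to 4.04% in the first prp8-N1869D sample, with most of its shifted reads at 1 nt upstream. Intervals lay above PRP8-WT in 3, 2, 7, 3 and 5 members of the mutant samples in sample order, against 3.93%, 5.71%, 8.21%, 6.07% and 7.5% of all introns. RPS30B lay above it in the first prp8-N1869D sample and below it in prp8-V1860D, the second prp8-N1869D sample and prp8-V1870N, where 1.43%, 2.86% and 1.07% of introns did. This measure and the description of RPS19A were chosen after the values were seen.

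**Figure D5:**
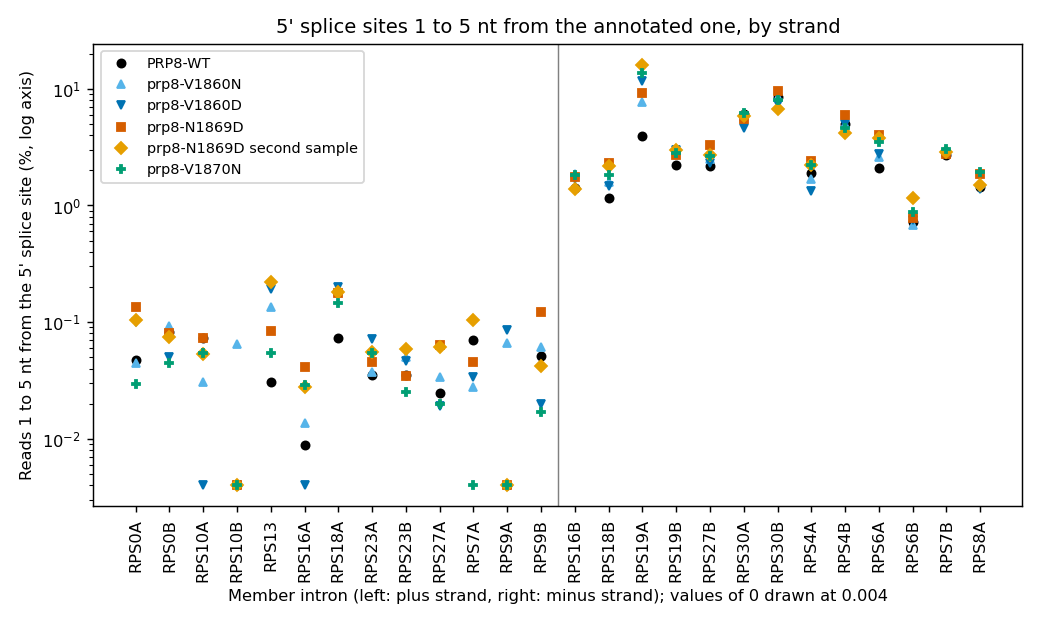
Reads 1 to 5 nt from the annotated 5' splice site as a percentage of these and annotated reads (log axis), for 26 members in each sample, with plus-strand members on the left. All 13 minus-strand members plotted lie above the 13 plus-strand ones, and RPS19A rises from 3.94% in PRP8-WT to 16.0% in the second prp8-N1869D sample.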

How the data were processed

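Per the labels' protocols, lariat RNA was enriched by ribosomal RNA depletion and RNase R. Per the submitters' processing notes, reads were handled with Trimmomatic and Bowtie2 on build R64. The sources used here do not give their versions, the read filter or how strand was assigned. Per the file headers, the deposited counts are whole numbers of lariat reads, listed for every junction of a 5' splice site with a branch point, and also summed to annotated introns over branch positions within 2 nt. Another 65 columns of per-sample values were not used.

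Members and lists were chosen with earlier results of these data known. Groups came from the labels, and technical libraries were summed. Nothing says that the other samples came from separate cultures, so the p-values measure only the spread between these samples. Annotated counts equalled the sum over pairs in 280 of 280 introns, and the deposited aberrant counts of members equalled the recomputed ones in 149 of 150 cases. Of the 280 introns 279 began with GT in the reference, and positions are counted from 1.

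Levels were compared as log2 ratios of shares of annotated reads with a pseudocount of 0.5 reads. Introns were called past 1.5-fold, or where exact Clopper-Pearson 95% intervals did not overlap, without a test. A zero was given the limit of 3 counts. edgeR 4.0.16 in R 4.3.3 (TMM, filterByExpr, glmQLFit, glmQLFTest, Benjamini-Hochberg over all introns) compared prp8-N1869D with PRP8-WT, with DESeq2 1.42.0 as an alternative. On simulated counts of 266 introns of that comparison it found 53 of 55 introns changed 4-fold and called 2 of 211 unchanged ones. The simulation gave PRP8-WT the spread seen between the prp8-N1869D samples, so it cannot check that assumption. The estimated changes of the called members were smaller than 4-fold. Other calculations used Python 3.11.15, numpy 2.4.6, pandas 2.3.3, scipy 1.17.1, biopython 1.88 and matplotlib 3.10.9.

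Named introns followed a rule: the 5 members with the most and the 3 with the fewest annotated reads, the 4 pairs with the largest and the 2 with the smallest absolute median log2 ratio, the 4 pairs with the widest range, the 3 highest and 3 lowest members of each mutant sample with at least 50 reads, and the 6 members with the most aberrant and the 6 with the most distant branch point reads. The distant branch points of RPS16B, RPS8B, members called by a test or an interval, and the shifted reads were named after their values were seen. Alternatives covered scaling, pseudocount, minimum reads, fold threshold, distance, exact branch point, the leading member and each technical library. Leaving out RPS30B, weighting members as in PRP8-WT and adding shifted reads were chosen after seeing the data. Values of some members that the rule names are not reported here and are left out of the figures, but they stay in every count, median and fit.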

Additional observations from a re-analysis of the deposited data

How the results depend on the processing

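Of the values and counts that answer a comparison, 113 kept their place under an alternative and 60 moved. Scaling by TMM, DESeq2 size factors and introns outside ribosomal protein genes gave the summed member share a log2 change of -0.63, -0.68 and -0.70 in the first prp8-N1869D sample and of -0.88, -0.94 and -1.11 in the second, and the last scaling gave -0.48 in prp8-V1870N. These scalings shifted the median intron by -0.25, -0.30 and -0.32 in the first prp8-N1869D sample, by -0.23, -0.29 and -0.46 in the second and by -0.13, -0.14 and -0.23 in prp8-V1870N. Members lower past 1.5-fold then numbered 18 under each of the 3 in the first prp8-N1869D sample (26.4%, 27.1% and 27.9% of all introns), 21 and 28 under the last 2 in the second (29.6% and 39.6%), and 7, 7 and 10 in prp8-V1870N (12.9%, 13.2% and 17.1%), and RPS7A was no longer past 1.5-fold, at log2 0.38, 0.34 and 0.31. Past 2-fold there were 4, 8 and 0 lower members in the first and the second prp8-N1869D sample and prp8-V1870N (6.43%, 10% and 1.79% of all introns), and 0, 3, 5 and 0 pairs whose ratio moved in prp8-V1860D and these 3 samples (0%, 26.7%, 24.4% and 8.89% of all 45 pairs). With reads 1 to 5 nt from the 5' splice site added, an alternative chosen after seeing the data, 10 pairs passed and 5 and 9 moved in the prp8-N1869D samples. With edgeR, leaving out a technical library gave 40 to 55 introns called higher, 31 to 41 lower and 7 to 11 members lower, where RPS30A and RPS6A were the members lost without technical library 1. RLE factors and DESeq2 each called 10 members lower, RPS10B being added. With exact branch points only, the mean log2 ratio was 0.19 in RPS16 and -0.11 in RPS4. Sites with at least 5 reads gave aberrant shares of 0.0744%, 0.0490%, 0.0276%, 0.0437%, 0.0385% and 0.0549% in the sample order of the text. In this count both prp8-N1869D samples lay below PRP8-WT, while with all sites they lay slightly above it. Without RPS23B they were 0.0783%, 0.0736% and 0.0465% in the first 3 strains, 0.0876% in the second prp8-N1869D sample and 0.0818% in prp8-V1870N. Weighting members as in PRP8-WT gave 0.123% in the second prp8-N1869D sample. In the same order, distant branch shares were 0.436%, 0.435%, 0.407%, 0.503%, 0.547% and 0.533% for sites with at least 5 reads. They were 0.240%, 0.259%, 0.267%, 0.408%, 0.423% and 0.350% beyond 10 nt, and 0.521%, 0.532%, 0.484%, 0.696%, 0.681% and 0.602% without RPS23A. Weighting gave 0.720% in the second prp8-N1869D sample. A minimum per site removes more reads from shallower libraries. As a median over members, 54.8% of reads ended 1 nt upstream in prp8-V1860N, 49.3% in prp8-V1860D and 55.1% and 52.6% in the prp8-N1869D samples, and leaving out a technical library gave 52.6 to 54.4%. No paired analysis between strains was possible because the groups compared share fewer than 2 replicate numbers. The cause of these moves was not tested. With 1 library per strain, only prp8-N1869D has a spread between samples, and the PRP8-WT library enters every comparison of a mutant.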
